A study of Rattus norvegicus with 164 samples.

Results

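The 10 genes described here are genes of fibroblasts of the meninges, followed through RNA sequencing of rat prelimbic cortex, 10 of the 38354 genes measured. They were taken by name, and all 10 had a row in the expression table: the collagen genes Col1a1, Col1a2 and Col3a1, the small proteoglycan genes Dcn, Lum and Fmod, the growth factor gene Igf2 and its binding protein gene Igfbp2, and the enzyme genes Aldh1a2 and Ptgds. The tissue came from outbred laboratory rats of the heterogeneous stock, which descends from several inbred strains, and each of the 130 libraries carries its own animal identifier. By the kind of identifier, 68 libraries form a decimal series (a plain number), 51 an E21DCD series (a code beginning with these characters), and in 11 the labels mark the code as reassigned. The labels give no treatment, sex, age or batch for any of them, so what else separates the series cannot be told apart from the identifier. Libraries are named below by series and replicate number, which only names a library.

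Levels are log2(CPM + 1), where CPM is the estimated count scaled to a library total of 1000000, and are called log2 levels here. Summed counts per library, in units of 1000000, were 15.12 to 55.95, with a median of 25.79. In 11 libraries, all of the decimal series, the dopamine receptor gene Drd2 of striatal neurons was above 6, at 7.25 to 7.90, while it was at 1.94 to 4.65 in the other 119. The 11 are called striatal-like and the 119 cortical, and the label prelimbic cortex stands on all of them. The excitatory neuron gene Slc17a7 was at 9.58 to 11.20 in the cortical libraries and at 2.75 to 8.84 in the striatal-like ones. Another 7 cortical libraries (decimal replicate 15 and 6 of the E21DCD series) stood apart by a level of the GABA synthesis gene Gad2 below 5, and results that moved without them are given both ways. Since these are bulk samples, fewer fibroblasts in a dissection and less RNA per fibroblast cannot be told apart.

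The meninges are the membranes that wrap the brain, and their fibroblasts lay down the fibrous matrix of the pia and arachnoid. Type I collagen is a fibril of the products of Col1a1 and Col1a2, and type III collagen, the product of Col3a1, assembles with it. Small leucine-rich proteoglycans bind these fibrils and set their spacing. Meningeal fibroblasts also secrete insulin-like growth factor 2 and its binding protein, make retinoic acid through the aldehyde dehydrogenase Aldh1a2, and release prostaglandin D2 synthase, the product of Ptgds, into the cerebrospinal fluid. A piece of cortex holds such cells on its surface and around vessels that enter it.

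The members are spread over the genome, by the RefSeq gene table of the GRCr8 assembly. Col1a1 is at chr10:80380458-80397461, Col1a2 at chr4:33518557-33553484, Col3a1 at chr9:54866646-54902578 and Igfbp2, on the same chromosome, at chr9:81864811-81892179. Fmod is at chr13:48045567-48056184, Igf2 at chr1:207243873-207261263, Aldh1a2 at chr8:80758641-80837891 and Ptgds at chr3:28680044-28682978. Dcn (chr7:34167973-34208004) and Lum (chr7:34245323-34252510) are near neighbours, with starts 77.3 kb apart and 1 gene start between them.

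The members that varied together mostly lie on different chromosomes, and the sequence before the start site is shown for 4 of them, with a member of each role. RefSeq promoters of GRCr8 were given for 7 of the 10 members (not for Col1a1, Col3a1 and Dcn). Capitals mark 3 motifs, searched on both strands: TATAAA of the TATA box, the CCAAT box (ATTGG when reversed) and the GGGCGG of GC boxes (CCGCCC when reversed). The Col1a2 stretch is chr4:33518327-33518426 (plus strand), that of Fmod chr13:48045317-48045566 (plus), that of Igfbp2 chr9:81864561-81864810 (plus) and that of Ptgds chr3:28682979-28683228 (minus), each written 5′ to 3′ along the gene. The Col1a2 stretch holds the 100 bases from 230 to 131 before the start site, and the others the 250 bases before it.
Col1a2: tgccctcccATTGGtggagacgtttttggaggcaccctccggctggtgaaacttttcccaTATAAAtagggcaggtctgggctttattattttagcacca
Fmod: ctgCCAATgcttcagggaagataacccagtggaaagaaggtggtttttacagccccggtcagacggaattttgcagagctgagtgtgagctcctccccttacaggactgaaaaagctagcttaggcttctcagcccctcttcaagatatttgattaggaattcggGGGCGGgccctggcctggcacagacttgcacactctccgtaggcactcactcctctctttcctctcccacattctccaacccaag
Igfbp2: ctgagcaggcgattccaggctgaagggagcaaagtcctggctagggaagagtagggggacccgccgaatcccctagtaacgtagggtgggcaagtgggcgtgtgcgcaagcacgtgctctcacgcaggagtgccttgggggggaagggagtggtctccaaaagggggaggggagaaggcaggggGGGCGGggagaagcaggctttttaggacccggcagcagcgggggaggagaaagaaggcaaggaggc
Ptgds: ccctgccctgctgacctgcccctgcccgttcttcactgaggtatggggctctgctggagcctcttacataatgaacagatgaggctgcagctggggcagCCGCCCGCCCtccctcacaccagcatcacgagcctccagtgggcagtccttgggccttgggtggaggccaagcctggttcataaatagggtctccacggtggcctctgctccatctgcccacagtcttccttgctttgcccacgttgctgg
The motifs differ between these members. Col1a2 holds a TATAAA and a reversed CCAAT, Fmod a CCAAT and a GGGCGG, Igfbp2 a GGGCGG, and Ptgds a run in which 2 copies of CCGCCC overlap. Of 33469 RefSeq promoters, 12.9% held TATAAA, 34.0% CCAAT and 30.5% GGGCGG in the 250 bases before the start site. That window is longer than the Col1a2 stretch. CCAAT and GGGCGG are thus common and TATAAA less so, and each match is only a description of these letters.

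All 10 members were detected in every library, and each spanned a wide range in the cortical ones. Together they took 0.0183% of all counts in the lowest cortical library, 0.0495% in the median and 0.162% in the highest, an 8.82-fold range. Ptgds made up much of that sum, and without it the share ran from 0.00599% through 0.0183% to 0.0513%, an 8.56-fold range. The levels of each member by library, and the order of the groups within each gene, are shown in the plot of levels.

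**Figure D1:**
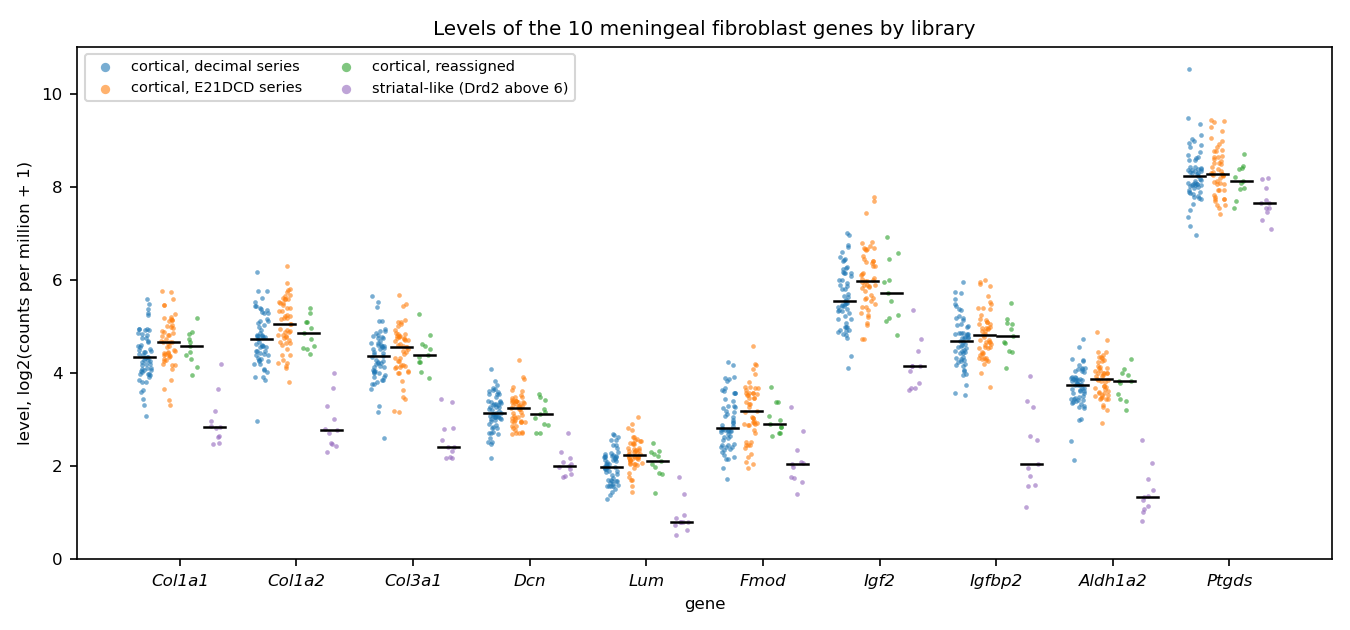
Log2 level (log2(CPM + 1), vertical axis) of each of the 10 genes (horizontal axis); each point is 1 library, coloured by group, and each bar is the group median. The striatal-like medians lie below the cortical ones for all 10 genes; those libraries are at 1.12 to 3.93 for Igfbp2, against 3.53 to 6.00 in the cortical ones, and at 7.09 to 8.18 for Ptgds, within the cortical 6.96 to 10.52.

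Among the fibrillar collagens, Col1a1 was at a log2 level of 3.08 in the lowest cortical library, 4.46 in the median and 5.76 in the highest. Col1a2 ran from 2.96 through 4.82 to 6.29, an 11.4-fold range in CPM. Col3a1 ran from 2.60 through 4.46 to 5.67. Decimal replicate 16, whose sum of counts was 54.52 in units of 1000000, was the lowest cortical library for 8 of the 10 members, both type I collagen genes among them, and Col3a1 was lowest in decimal replicate 15.

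The proteoglycan genes spread less, apart from Fmod. Dcn, for decorin, was at 2.17, 3.17 and 4.27 (lowest, median and highest cortical log2 level), and Lum, for lumican, at 1.28, 2.15 and 3.04. Fmod, for fibromodulin, was at 1.72, 2.97 and 4.59, a 9.99-fold range in CPM. Their SDs over the 119 cortical libraries were 0.35, 0.35 and 0.58 on the log2 scale. Counting error sets a floor under such spreads, and it is largest where counts are few. Lum had a median of 90.0 estimated counts per cortical library, and Poisson counting would give 11.7% of its variance, against 6.51% for Dcn (206.0 counts) and 3.19% or less for the other 8.

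Igf2, which codes for a growth factor of fetal tissues that persists in the adult meninges, had the widest spread. Its log2 level was 4.11 in the lowest cortical library, 5.85 in the median and 7.78 in the highest, a 13.4-fold range in CPM. With an SD of 0.68 it varied more than 98.4% of the 15124 genes tested in the cortical libraries, whose median SD was 0.25. Igfbp2, whose product binds the growth factor, ran from 3.53 through 4.75 to 6.00, with an SD of 0.52.

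Of the enzyme genes, Aldh1a2 was at 2.14, 3.81 and 4.88, with an SD of 0.42. Ptgds was at 6.96, 8.27 and 10.52, with an SD of 0.53. The highest Ptgds value was in decimal replicate 15, a library of low Gad2, and without the 7 such libraries the highest was 9.48. In those 7 libraries Ptgds was at 8.22 to 10.52 with a median of 8.91, while Col3a1 was at 2.60 to 4.47 with a median of 3.48, so the members did not all lean the same way there.

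High values fell repeatedly in the same libraries. E21DCD replicate 20 was among the 5 highest cortical libraries for 9 members and the highest for 6 of them. Decimal replicate 36 was among the 5 highest for 8 members, E21DCD replicate 34 for 7 and E21DCD replicate 30, a library of low Gad2, for 6. Decimal replicate 15 had the highest Ptgds and was among the 5 lowest for 3 other members.

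Across the 119 cortical libraries all 45 pairs of members were positively correlated. Pearson's r ran from 0.34 (Dcn with Ptgds) to 0.90 (Col1a1 with Col1a2), with a median of 0.61. Spearman's rho had a median of 0.65, from 0.27 to 0.89. Every pair had a two-sided permutation p of 0.00022 or less for r (100000 permutations, smallest possible 1e-05), adjusted over the 45 pairs 0.00022 or less. Among all pairs of the 15124 tested genes the median r was 0.09, and 24.1% of these pairs reached the lowest r of the members while 6.94% reached their median. The genes were chosen as markers of 1 cell type, and with earlier results of these libraries known, so these p-values are no independent evidence of coupling.

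**Figure D2:**
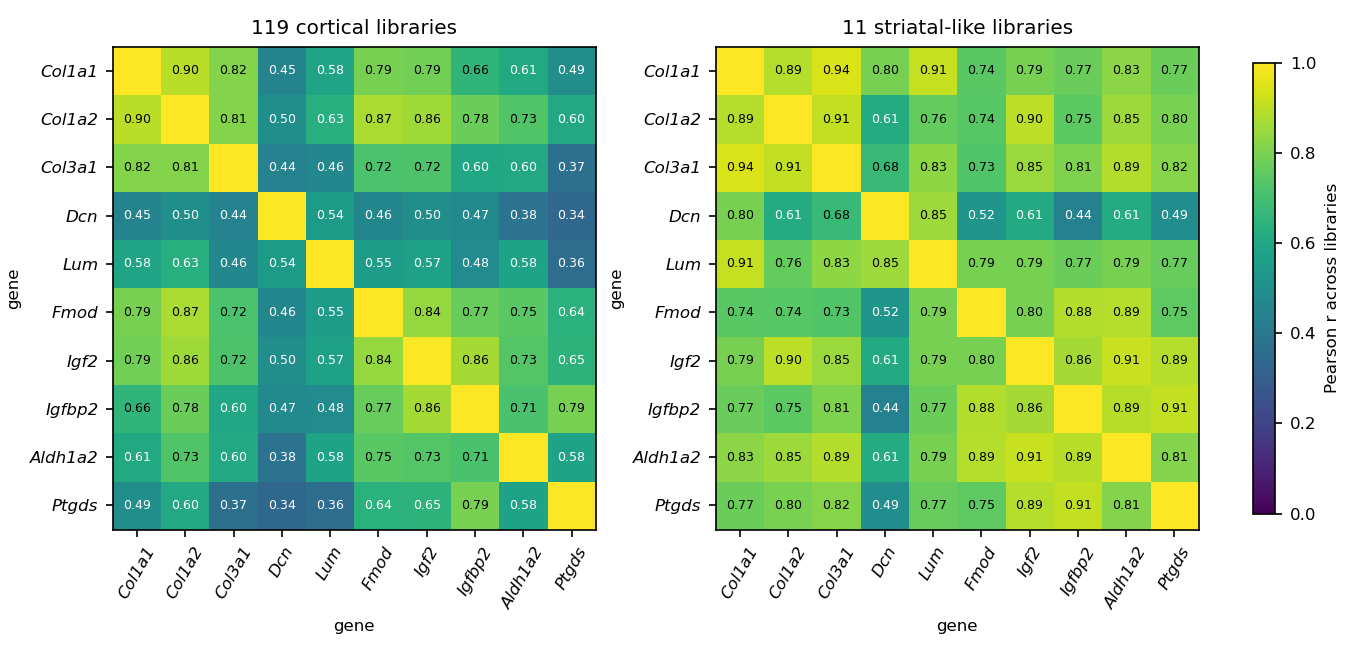
Pearson r between each pair of the 10 genes over the 119 cortical libraries (left) and the 11 striatal-like libraries (right), with the genes on both axes and r as colour and number. In the cortical libraries the collagens, Fmod, Igf2 and Igfbp2 hold the highest values, up to 0.90, and the rows of Dcn, Lum and Ptgds the lowest, down to 0.34.

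The tightest coupling lay among the collagens, Fmod and the growth factor genes. The 3 collagen pairs had r of 0.81 to 0.90, Col1a2 with Fmod 0.87, Col1a2 with Igf2 0.86, and Igf2 with Igfbp2 0.86. Leaving out the 2 libraries farthest from the median of the first gene gave 0.89 for Col1a1 with Col1a2, 0.86 for Col1a2 with Fmod and 0.85 for Igf2 with Igfbp2. Over all 45 pairs, r without those 2 libraries was 0.26 to 0.89 with a median of 0.62. Within the decimal series alone (57 libraries) the median r was 0.62, and within the other 62 cortical libraries it was 0.63.

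The proteoglycan genes split. Fmod followed the collagens, with r of 0.79, 0.87 and 0.72 for Col1a1, Col1a2 and Col3a1, whereas Dcn with the same genes had r of 0.45, 0.50 and 0.44. Dcn and Lum, the neighbours on chromosome 7, had an r of 0.54 with each other, the highest r of Dcn with any member. It was 0.53 in the decimal series and 0.59 in the other cortical libraries.

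How closely each gene followed the rest was described by the variance it shared with the mean z-score of the other 9. Col1a2 shared 85.2%, Igf2 80.8%, Fmod 77.1%, Igfbp2 70.3% and Col1a1 69.1%. Aldh1a2 shared 59.2%, Col3a1 56.4%, Ptgds 41.4%, Lum 40.5% and Dcn 28.9%. These shares, and the slopes below, include the libraries of low Gad2, without which most pairs of Ptgds were closer (next paragraph). For each unit of the mean log2 level of the 3 collagens, Igf2 changed by 1.11 units, Fmod by 0.95, Igfbp2 by 0.72 and Aldh1a2 by 0.56. The slopes of Ptgds, Lum and Dcn were 0.54, 0.40 and 0.33, and their r with that mean were 0.52, 0.59 and 0.49.

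The 7 libraries of low Gad2 bore on some pairs. Without them the median r of the 45 pairs was 0.72 over 112 libraries, from 0.38 to 0.90. Col3a1 with Ptgds moved most among the pairs named here, from 0.37 (rho 0.52) to 0.67, and Col3a1 with Igfbp2 from 0.60 to 0.77. Other pairs of Ptgds rose too: with Col1a2 from 0.60 to 0.75, with Col1a1 from 0.49 to 0.68, with Fmod from 0.64 to 0.78 and with Aldh1a2 from 0.58 to 0.70. Ptgds with Igfbp2 was 0.79 in both sets. Dcn and Lum moved little with Col1a2, from 0.50 to 0.50 and from 0.63 to 0.65. Col1a1 with Col1a2 was 0.90 in both sets. The scatter of Ptgds against Col1a2 marks these 7 libraries in red.

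**Figure D3:**
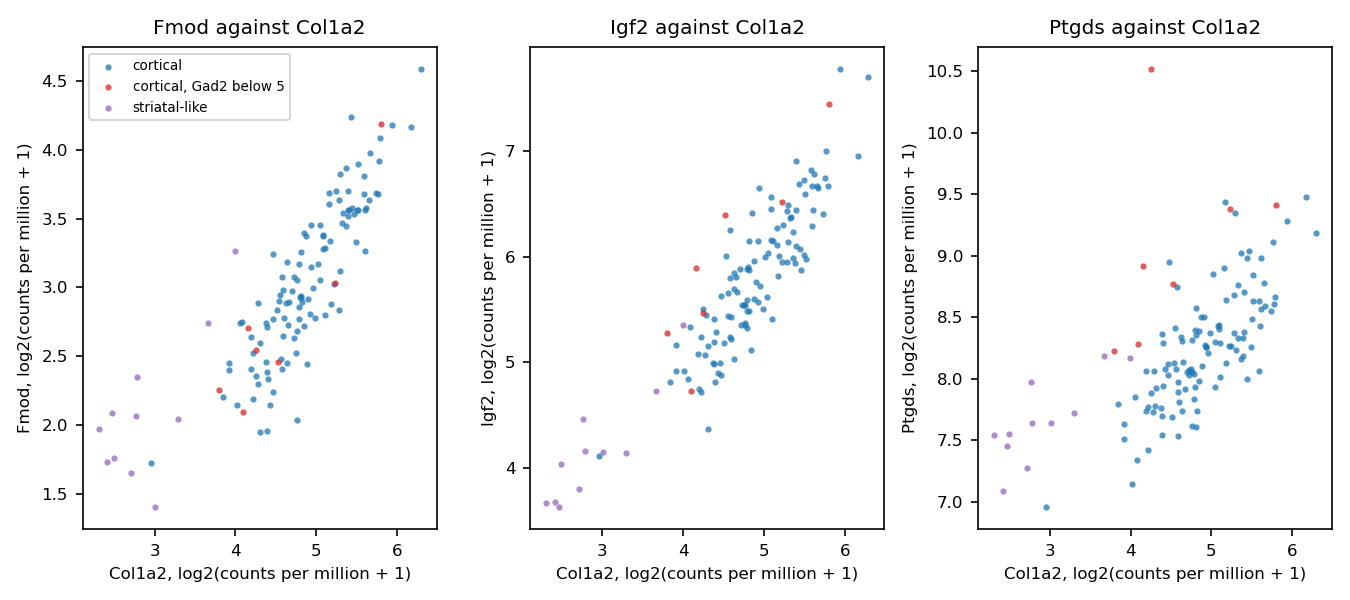
Log2 levels (log2(CPM + 1)) of Fmod, Igf2 and Ptgds (vertical axes) against Col1a2 (horizontal axes); each point is 1 library. Fmod and Igf2 follow Col1a2 closely in the cortical libraries (r of 0.87 and 0.86), Ptgds less so (0.60, or 0.75 without the red points). The red points with Gad2 below 5 include the highest Ptgds value of 10.52.

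In the 11 striatal-like libraries the median of every member was below its cortical median. The split rests on Drd2 values and not on a label, so the groups were described and not tested. The median difference over the 10 members was -1.67 on the log2 scale (from -2.72 for Igfbp2 to -0.62 for Ptgds), while over all 15150 tested genes it was 0.04, with 5th and 95th percentiles of -1.16 and 0.95.

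Igfbp2 and Aldh1a2 differed most. Igfbp2 had a median log2 level of 2.03 in the striatal-like libraries (1.12 to 3.93) against 4.75 in the cortical ones, 8.40-fold less in CPM, and 10 of 11 libraries lay below the whole cortical range. Aldh1a2 had a median of 1.33 (0.81 to 2.55) against 3.81, 8.60-fold less, also with 10 of 11 below the cortical range. The collagens had medians of 2.83 (Col1a1), 2.77 (Col1a2) and 2.40 (Col3a1), which are 3.43-, 4.70- and 4.88-fold less, with 8, 7 and 7 of 11 libraries below the cortical range.

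Among the other members Igf2 had a median of 4.14, 3.41-fold less than in the cortical libraries, and 5 of 11 libraries below their range. Dcn and Lum had medians of 2.00 and 0.80, 2.67- and 4.67-fold less, with 9 of 11 libraries below the range for each. Fmod overlapped widely: its median was 2.04, 2.20-fold less, and 2 of 11 libraries were below the range. Ptgds was the least reduced, with a median of 7.64 (7.09 to 8.18), 1.54-fold less, and no library below the cortical range. For no member did all 11 lie below every cortical library, a pattern seen in 2.86% of the tested genes.

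The striatal-like libraries were not alike. Decimal replicates 3 and 4 had the 2 highest levels of all 10 members among the 11. Without Ptgds, the members took 0.0109% and 0.00906% of counts there and 0.00336% to 0.00575% in the other 9. Their Slc17a7 levels, 6.73 and 7.93, were inside the range of the 11 and below those of decimal replicates 57, 58 and 63 (8.21 to 8.84), which did not share the high member levels. The transporter gene Slc13a4 of meningeal cells was at 3.34 and 2.75 in replicates 3 and 4 and at 1.87 to 2.62 in the rest. Correlations within the 11 leaned on few libraries: the median r over 45 pairs was 0.80, and without the 2 libraries farthest from the median of the first gene it was 0.42, with 9 pairs below 0.

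Ptgds stood apart from the other members there, and Ptgds is also known from oligodendrocytes, the myelin-forming cells. The 12 oligodendrocyte genes summed to 12919 to 25163 CPM in the striatal-like libraries and to 1197 to 22415 in the cortical ones. Their part in the smaller difference of Ptgds was not tested between these groups. Within the cortical libraries Ptgds had an r of 0.09 with the oligodendrocyte list (permutation p = 0.341, adjusted over 230 pairs of members and lists 0.451), higher than that of any other member, since the other 9 lay between -0.30 and -0.11.

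In a joint fit on the other 9 members and the oligodendrocyte list, Ptgds stood apart. The variance explained rose from 41.4% with the members alone to 48% with both, and the partial r with oligodendrocyte genes was 0.34, or 0.47 without the libraries of low Gad2. For the other 9 members the partial r was -0.23 to 0.03 (-0.28 to 0.11 without those libraries). Col1a2, Lum, Fmod and Igf2 were negatively correlated with the oligodendrocyte list, at -0.27, -0.30, -0.29 and -0.22 (adjusted permutation p = 0.00707, 0.00294, 0.0046 and 0.0386). Within the decimal series and within the other libraries none of these 4 passed.

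**Figure D4:**
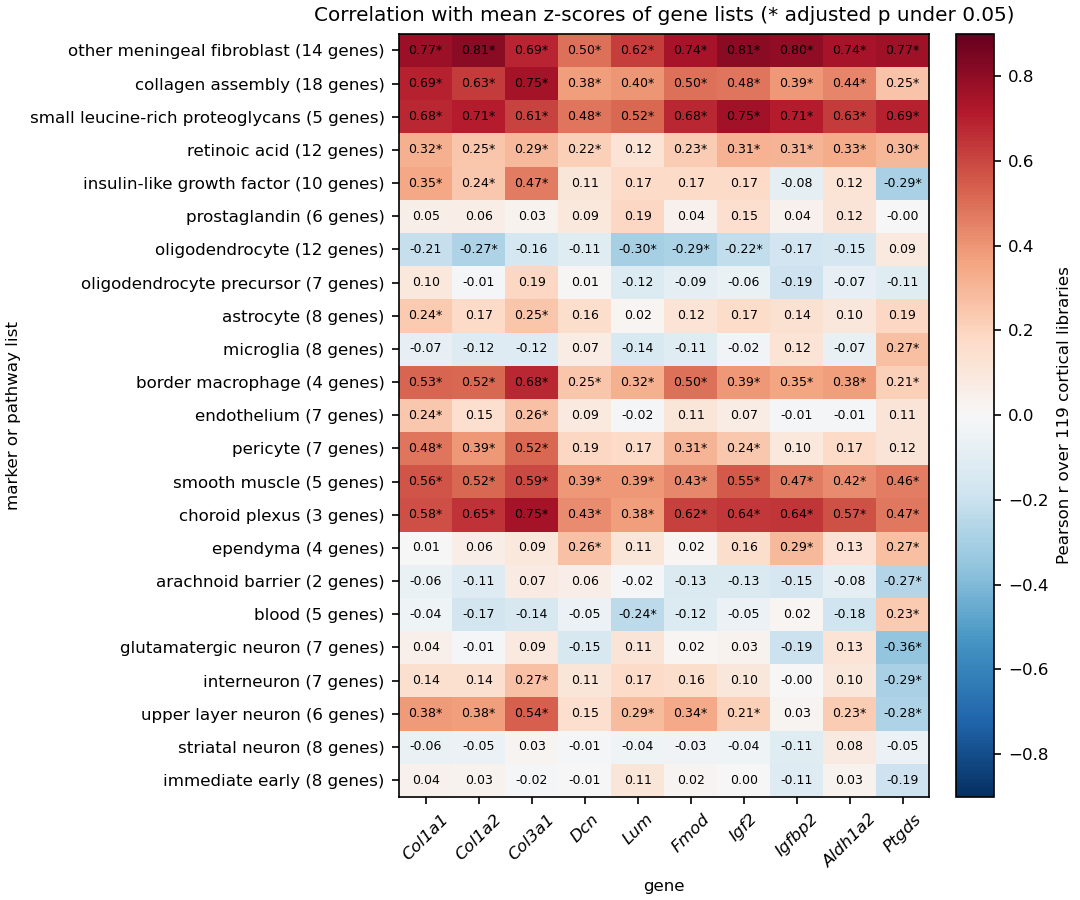
Pearson r over the 119 cortical libraries of each of the 10 genes (horizontal axis) with the mean z-score of 23 gene lists (vertical axis, with the number of genes used); an asterisk marks a permutation p under 0.05 after adjustment over 230 pairs. Rows of meningeal, matrix, border macrophage, smooth muscle and choroid plexus genes are positive and past the threshold for all 10. Rows of retinoic acid, pericyte, ependyma and astrocyte genes are also positive for all 10, with 9, 5, 3 and 2 members past it. With endothelial genes 2 members are past it. Ptgds has the only positive value with oligodendrocyte genes, 0.09.

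Of the 230 pairs of a member with a list, 94 were positive and 10 negative past the threshold (permutation test, adjusted p under 0.05). All 10 members were positive with other meningeal fibroblast genes (14 tested, r of 0.50 to 0.81), with other small leucine-rich proteoglycans (5 genes, among them Bgn and Ogn that the first list also holds, 0.48 to 0.75) and with collagen assembly genes such as prolyl hydroxylases and lysyl oxidases (18 genes, 0.25 to 0.75). Col3a1 was the member closest to collagen assembly (0.75), and Igf2 and Col1a2 were closest to the meningeal list (both 0.81). Genes within the meningeal list differed in their r with the mean z-score of the 10 members. The highest was Slc13a4 (0.86), while Foxc1 had 0.32 and Mgp 0.22, and Dpp4 (-0.18) was the only negative one of the 14. With 2 arachnoid barrier genes, Dpp4 among them, the members had r of -0.27 to 0.07, and the 1 that passed was negative. Ptgds with collagen assembly was 0.25, and 0.63 without the libraries of low Gad2.

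The lists of pathway partners of the enzymes and of Igf2 had r with the members of at most 0.47. Aldh1a2 had an r of 0.33 with the 12 other retinoic acid genes tested, and 9 of 10 members passed with that list, at r of up to 0.33. Igf2 had an r of 0.17 with 10 other genes of the insulin-like growth factor system, and did not pass (adjusted permutation p = 0.12). Of the members 4 passed with that list, positive for Col1a1 (0.35), Col1a2 (0.24) and Col3a1 (0.47) and negative for Ptgds (-0.29), which was 0.12 and did not pass without the libraries of low Gad2. Ptgds had an r of -0.0028 with 6 other prostaglandin genes, and no member passed with that list.

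Genes of cells next to the meninges followed the members. With macrophages of the brain's borders (4 genes tested, among them the mannose receptor gene Mrc1) all 10 members were positive, most of all Col3a1 at 0.68 and least Ptgds at 0.21 (0.56 without the libraries of low Gad2). The marker genes within this list differed, as the mean z-score of the 10 members had r of 0.60 with Mrc1 and 0.44 with F13a1 but 0.06 with Lyve1. The list summed to 4.68 to 18.5 CPM in the cortical libraries, and Cbr2 was at 0 in 90 of them.

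Smooth muscle genes of vessels were positive with all 10 members (5 tested, r of 0.39 to 0.59), led by Acta2 with an r of 0.57 and Tagln with 0.54 to the mean of the members. Pericyte genes were positive with 5 (Col1a1, Col1a2, Col3a1, Fmod and Igf2), up to 0.52 for Col3a1. Within the pericyte list, Vtn, for vitronectin, had an r of 0.81 with the members' mean, while Rgs5, Kcnj8, Abcc9 and Higd1b had r of 0.09, -0.07, -0.01 and -0.05. The part of mural cells in the levels of the collagens was not tested.

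Igf2, Igfbp2 and Ptgds are also genes of the choroid plexus, the tissue that makes cerebrospinal fluid. Of 8 choroid plexus genes 3 were high enough to be tested, and all 10 members were positive with the mean score of the 3 (r of 0.38 to 0.75). Of the genes too low to be tested, Ttr had a median log2 level of 0.06 in the cortical libraries. It was at 0 in 48 of them and reached 4.16 in the highest. Folr1 and Clic6 were at 0 in 45 each and Otx2 in 75, while Clic6 reached 2.12. Kl had a median of 0.63 and was at 0 in none. Over all 8 genes the sum was 3.50 to 33.6 CPM in the cortical and 5.11 to 10.5 in the striatal-like libraries. The mean of the members had r of -0.17 with Ttr, -0.01 with Folr1, -0.02 with Kl, -0.08 with Clic6 and -0.11 with Otx2. Among the tested genes it had r of 0.69 with Kcnj13 and 0.67 with Aqp1, a potassium channel and a water channel gene. The remaining tested gene, Slc4a5, had an r of 0.10.

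Ptgds departed from the other members with neuronal and immune lists. It had an r of -0.36 with glutamatergic neuron genes and 0.27 with microglial genes, both past the threshold (adjusted permutation p = 0.00381 and 0.00825). Leaving out, for each list, the 2 libraries farthest from the median of its score gave -0.08 and 0.34. Without all 7 libraries of low Gad2 the values were -0.18 and 0.19 and neither passed (adjusted p = 0.125 and 0.0968). Upper layer neuron genes, of cells that lie toward the pial surface, were positive with 7 members, most of all Col3a1 at 0.54. With Ptgds they had an r of -0.28, which was 0.08 without those 7 libraries.

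Among 13790 other genes with a symbol and a mean level of at least 1, few matched the members as a whole. Their r with the mean z-score of the 10 members reached 0.5 in 80 genes, 0.7 in 15 and 0.8 in 5. The 5 were Slc13a4 (0.86), a sulfate transporter, Cpz (0.85), a carboxypeptidase, Slc22a6 (0.81), an organic anion transporter, Vtn (0.81) and Ogn (0.80), a proteoglycan of the same family as Dcn and Lum. Below these came Pcolce (0.80), Gjb2 (0.79), Fmo1 (0.79), Dab2 (0.79), Tbx18 (0.77), Slc13a3 (0.76), Gstm2 (0.73), Bmp6 (0.73), Cyp1b1 (0.72) and Fndc1 (0.71). In the decimal series these 15 genes had r of 0.66 to 0.87 and in the other cortical libraries 0.68 to 0.88.

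Most of these were lower in the striatal-like libraries, by differing amounts. For all tested genes the 5th percentile of this difference was -1.16. Ogn differed by -2.50 between the medians of the striatal-like and cortical libraries, Slc22a6 by -2.20 and Slc13a4 by -1.76. Gjb2 differed by -1.62, and Gstm2 and Cyp1b1 by -1.50 each. Fmo1 and Slc13a3 were not lower there, with differences of 0.36 and 0.13. The rest did not reach that percentile: Pcolce and Fndc1 differed by -0.85 each, Tbx18 by -0.77 and Dab2 by -0.70. Cpz, Vtn and Bmp6 differed by -0.34, -0.46 and -0.32.

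The nearest gene varied by member, by r over the cortical libraries. Col1a1 and Col3a1 were nearest to Dab2 (0.79 and 0.82), Col1a2 and Fmod to Slc13a4 (0.83 and 0.82), Aldh1a2 likewise to Slc13a4 (0.75), and Igf2 to Cpz (0.81). Dcn was nearest to Ogn at 0.56 and Lum to Fmo1 at 0.69, and neither had a gene at 0.7 or more. Igfbp2 was nearest to Pcolce (0.83), an enhancer of collagen processing, and Ptgds to Gstm2 (0.82), a glutathione transferase, with Pcolce (0.79) and Bgn (0.76) after it.

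The series were compared in the cortical libraries, 57 of the decimal against 51 of the E21DCD series, by limma over 15124 genes with Benjamini-Hochberg adjustment. Of the 10 members 4 were lower in the decimal series and none higher, where 4.01% of all tested genes were lower and 5.88% higher. All 10 differences were below 0, with a median of -0.20 against 0.00 for all tested genes. Because the members were correlated over these libraries (median r of 0.61), their 10 signs and 4 calls are not separate observations. All 10 passed the filter on low values (a mean log2 level of at least 1).

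Igf2 had a median log2 level of 5.54 (4.11 to 7.00) in the decimal and 5.98 (4.72 to 7.78) in the E21DCD series, with wide overlap. Its mean difference was -0.40 ± 0.12 (SE; limma adjusted p = 0.0281). Col1a2 was at 4.72 (2.96 to 6.17) against 5.05 (3.80 to 6.29), a difference of -0.32 ± 0.10 (limma adjusted p = 0.0330). Col1a1 was at 4.34 (3.08 to 5.59) against 4.67 (3.30 to 5.76), a difference of -0.30 ± 0.10 (limma adjusted p = 0.0355). The RNA of both type I collagen genes was thus lower in this fit without covariates.

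Lum had the smallest p of the 10 genes. It was at a median of 1.99 (1.28 to 2.70) in the decimal and 2.24 (1.44 to 3.04) in the E21DCD series, and differed by -0.26 ± 0.06 (SE; limma adjusted p = 0.0030). The other 6 did not pass. Fmod differed by -0.22 (adjusted p = 0.188, 95% interval -0.44 to -0.01), Aldh1a2 by -0.18 (0.137, -0.33 to -0.02) and Igfbp2 by -0.17 (0.295, -0.36 to 0.03), all by limma. For Col3a1, Ptgds and Dcn the limma differences were -0.12, -0.08 and -0.06, with 95% intervals that reached 0.08, 0.12 and 0.07.

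**Figure D5:**
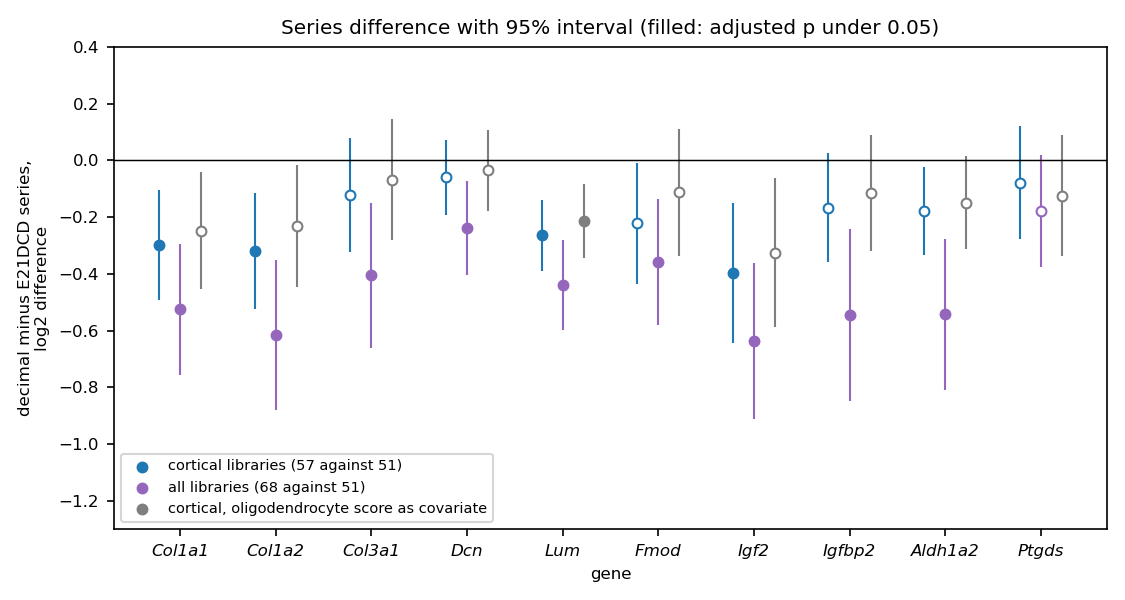
Difference in log2 level between the decimal and the E21DCD series (vertical axis) for each gene (horizontal axis) with its 95% interval, by limma in the cortical libraries, in all libraries, and in the cortical libraries with the oligodendrocyte score as a covariate; filled points had an adjusted p under 0.05. Filled points number 4 in the cortical libraries, 9 in all libraries and 1, Lum, with the covariate.

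The calls depended on which libraries and covariates entered. With all 130 libraries, 9 members were lower, all but Ptgds (-0.18, limma adjusted p = 0.172), where 13.2% of all genes were lower. That set adds the 11 striatal-like libraries to the decimal series. Without the libraries of low Gad2, 5 were lower, the 4 above and Fmod (-0.27, limma adjusted p = 0.0494), where 15.3% of all genes were. With log2 summed counts as a covariate Lum alone passed (-0.24, limma adjusted p = 0.0120), with 3.78% of all genes lower. All 10 differences were still below 0 in that fit, at -0.33 for Igf2, -0.28 for Col1a2 and -0.25 for Col1a1 (limma adjusted p = 0.0853, 0.088 and 0.106). The decimal libraries were deeper, at 29.8 ± 9.17 (SD, n = 57) against 25.3 ± 6.04 (SD, n = 51) in units of 1000000 counts.

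Oligodendrocyte genes moved with the series. Of 12 such genes 11 were higher in the decimal series and none lower, with a median difference of 0.56, and their sum was 1632 to 22415 CPM there (median 4634) against 1197 to 13617 (median 3127) in the E21DCD series. With their score as a covariate Lum remained lower (-0.21, limma adjusted p = 0.0318) and no other member passed, with 4.17% of all genes lower. Igf2 then differed by -0.33 (adjusted p = 0.122), Col1a2 by -0.23 (0.189) and Col1a1 by -0.25 (0.134). Immediate early genes were lower in 5 of 8, with a median difference of -0.34, and their part in the members' differences was not tested.

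The related lists were counted in the same fit. Of 18 other meningeal fibroblast genes 14 were tested, and 4 were lower and none higher: Gjb2 (-0.28), a gap junction gene, Slc22a6 (-0.28), Islr (-0.21) and Foxc1 (-0.19), a transcription factor of the meninges. Their limma adjusted p-values were 0.0207 to 0.0276, and the median of the list was -0.11. With the oligodendrocyte score as a covariate this list again had 4 lower and none higher, with a median of -0.15, where 1 of the 10 members was lower and their median was -0.14. A difference between the lists was not tested. In the fit without covariates, among 18 collagen assembly genes, 5 proteoglycans, 12 retinoic acid genes, 10 genes of the insulin-like growth factor system and 6 prostaglandin genes none passed in either direction. Nor did any of the 4 border macrophage and 5 smooth muscle genes, whose list scores were positive with all 10 members across libraries.

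The 11 reassigned libraries were set against the other 51 E21DCD libraries in the same fit. No member passed, and no gene of 15124 did (505 genes, 3.34%, had an unadjusted p under 0.05). The 10 differences were -0.26 for Igf2 to -0.03 for Col3a1. For Igf2 the 95% interval was -0.69 to 0.16, so a difference of the size seen between the decimal and E21DCD series lies within it.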

How the data were processed

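PolyA RNA had been sequenced from prelimbic cortex of heterogeneous stock rats. Of 164 samples in the labels, 130 have a column in the expression table and all columns were used; the other 34 were not analysed here. Per the submitters' processing notes, the authors quantified reads with kallisto 0.48. The deposited values are log2 of the estimated count per gene plus 1, judged from the file, and the genome build is not given in the sources used here. Of the symbols, 38278 (99.8%) were found in the RefSeq table of GRCr8, and the start of each member matched it.

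Values were turned back to counts, divided by the column sum, multiplied by 1000000 and put on a log2 scale after adding 1. Because the deposited unit is log2, count tests were not used. Libraries with Drd2 at 6 or below were called cortical. The test between series was that of limma 3.58.1 under R 4.3.3 (moderated t with trend, two-sided, all cortical groups in 1 fit, Benjamini-Hochberg over the 15124 genes with a mean of at least 1, threshold 0.05). Correlations used 100000 permutations of the libraries, two-sided, with adjustment over 45 pairs of members or 230 pairs of a member and a list. A list score is the mean z-score of its tested genes, with the members left out. Counting error is Poisson and covers sampling of counts only. Each library has its own animal identifier; no columns held identical values, and 0.945 was the largest r (gene means removed) of any library with another.

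The members and lists were chosen with earlier results of these data known. Named genes are the members, the 15 other genes with the highest r with their mean z-score, the nearest 3 of each member, and from each list those past the threshold, up to 4 in each direction; other marker genes are named for their known role. The limma step was tested on simulated data of the cortical comparison of the decimal and E21DCD series with 15124 genes. It found 84% of differences planted at 0.25 log2 and 98% at 0.5, and 5.7% of its calls were false. The members had cortical SDs of 0.35 to 0.68, against a median of 0.25 for the tested genes. The share found at SDs as large as those of the members was not tested separately. Nor were false calls counted separately for genes that vary together. Alternatives were median-of-ratios scaling (factors 0.527 to 2.141), other filters, a pseudocount of 0.1, Spearman's rho, covariates and subsets of libraries. Python 3.11.15, numpy 2.4.6, pandas 2.3.3, scipy 1.17.1 and matplotlib 3.10.9 were used.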

Additional observations from a re-analysis of the deposited data

How the results depend on the processing

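The 4 members lower in the decimal series became 9 with all 130 libraries, and 1 each without a filter on low values, with log2 summed counts as a covariate and with the oligodendrocyte score as a covariate; that 1 was Lum in the 3 cases. The differences of the 3 members that lost the call were the same without a filter (Igf2 -0.40, Col1a2 -0.32, Col1a1 -0.30; limma adjusted p = 0.0621 to 0.0759), -0.33 to -0.25 with summed counts and -0.33 to -0.23 with the oligodendrocyte score. Without the libraries of low Gad2 there were 5, and with a mean of at least 3 (Lum not tested) 3. Over the members and these alternatives, 74 of 89 values kept direction and side of the threshold, 9 lost the call, 6 gained it and none reversed. The median pairwise r of 0.61 was 0.72 without the libraries of low Gad2, and all 45 pairs passed in each alternative over cortical libraries. Of 520 values for member and list pairs past the threshold, 439 stayed, 76 lost the call and 5 reversed: Lum with blood genes (0.0160) and Aldh1a2 with upper layer genes (-0.13) in the E21DCD and reassigned libraries alone, Ptgds with upper layer genes (0.0830) and with the insulin-like growth factor list (0.12) without the libraries of low Gad2, and the last also by Spearman's rho (0.0374). The cause was not tested, apart from the number of genes or libraries that each alternative itself changes. Counting error takes the largest shares of variance in Lum and Dcn. No paired analysis was made, since each library has its own animal identifier and the labels used here give no pairs.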
